A study of Homo sapiens with 12 samples.

Results

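Sacubitrilat alone was compared with vehicle in cultured human cardiomyocytes, in 6 of the 12 libraries of the series: 3 with 16 µM sacubitrilat and 3 with vehicle, both for 48 h. Libraries were assigned to their group by sample title. Sacubitrilat is the active metabolite of the heart failure drug sacubitril and inhibits neprilysin, a membrane peptidase encoded by MME. All cells came from 1 clone, WTC-mEGFP-ACTN2-cl85, an edited line of induced pluripotent stem cells in which 1 allele of the alpha-actinin gene ACTN2 ends in a green fluorescent tag. Every group, the vehicle group included, carries this tag and was enriched for cardiomyocytes in glucose-free medium with lactate. The other 6 libraries, used here for comparison, received 10 nM endothelin-1 alone (3) or together with sacubitrilat (3). The treatment label of the vehicle group reads 16 µM DMSO. In 6 libraries a second description line contradicts the title: the sacubitrilat libraries are there described as endothelin-1, and the endothelin-1 libraries as sacubitrilat. Titles, library names and treatment labels were followed, and the values with those 2 labels exchanged are given with the alternatives.

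Neprilysin cleaves atrial and B-type natriuretic peptides, bradykinin, adrenomedullin, angiotensins and endothelins outside the cell. Natriuretic peptides are made by cardiomyocytes as precursors, cut by the proteases corin and furin, and act through guanylyl cyclase receptors that raise cyclic GMP. Their genes, NPPA and NPPB, are also standard markers of load and hypertrophy, the enlargement of cardiomyocytes, together with fetal actins and myosins. Inhibition of the enzyme acts on peptides, whereas the assay measured polyadenylated RNA at the 3′ end of transcripts. It reports neither peptide levels nor neprilysin activity.

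The libraries differed in depth. Vehicle replicates 1, 2 and 3 held 316932, 80844 and 170644 counts, and the sacubitrilat replicates held 1361536, 1268308 and 1953122. The summed totals were thus 8.06-fold higher with sacubitrilat. A floor of 3 counts corresponds to 9.47, 37.1 and 17.6 CPM (a gene's counts relative to all counts of its library, each library being scaled to the same total) in the vehicle libraries and to 2.20, 2.37 and 1.54 CPM in the sacubitrilat libraries. For this reason, values are given from a fit of all 12 libraries at full depth and again at matched depth, where each sacubitrilat library was thinned to the total of the vehicle library with its number. Vehicle replicate 2, the smallest library, stood apart from the other two: the chi-square per degree of freedom of counts between it and vehicle replicates 1 and 3 was 9.05 and 4.83, against 1.75 between replicates 1 and 3 and 1.15 to 1.64 among the sacubitrilat libraries. Of the 13 cardiomyocyte markers, 0 were without counts in all 6 libraries. The cardiac troponin T gene TNNT2 stood at 1899, 2220.3 and 2168 CPM with vehicle and 1321, 1389 and 1303 CPM with sacubitrilat. The sum of the 13 markers went the other way, at 11559 to 17762 CPM with vehicle and 19173 to 20600 CPM with sacubitrilat. Each culture is labelled a biological replicate of 1 line, so the tests measure the spread between cultures of that clone.

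With sacubitrilat, transcripts of B-type natriuretic peptide, a potassium channel, cardiac actins and 8 of 16 tested collagens were higher than with vehicle, and transcripts of metallothioneins, some light chains and troponins, and many noncoding genes were lower. Of 11203 tested genes, 2228 (19.9%) were called at an adjusted p under 0.05 by the edgeR quasi-likelihood test: 972 higher (8.68%) and 1256 lower (11.2%) with sacubitrilat. The median log2 fold change of all tested genes was 0.14. At matched depth 3024 genes had enough counts to test, and 508 (16.8%) were called, 131 higher (4.33%) and 377 lower (12.5%), with a median of 0.02. Of the 972 genes called higher, 560 could be tested at matched depth and 129 (23.0%) were called there. Of the 1256 called lower, 472 could be tested and 349 (73.9%) were called. No gene was called in opposite directions. Without vehicle replicate 2, 639 of the higher and 885 of the lower calls were kept. For gene lists, the range of higher and of lower calls over the 6 fits that each left out 1 library stands in parentheses where it moved a count by over 1.5 times. Calls among list members are to be read beside the shares of all tested genes. These are 8.68% higher and 11.2% lower at full depth, and 4.33% higher and 12.5% lower at matched depth.

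**Figure D1:**
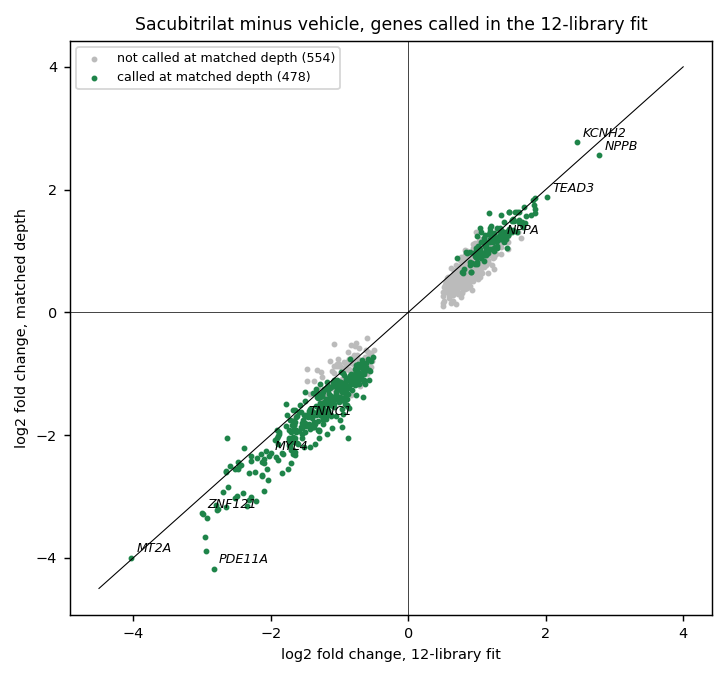
Each point is 1 gene called in the fit of 12 libraries and testable at matched depth, with the log2 fold change of sacubitrilat minus vehicle at full depth (x axis) and at matched depth (y axis). The line marks equal values, and 478 of the genes were called at matched depth as well (green), with MT2A and PDE11A lowest and KCNH2 and NPPB highest.

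Library depth moved with the calls beyond the 6 libraries that made them. The libraries with endothelin-1 alone were deep and those with both compounds shallow, so the sacubitrilat and endothelin-1 libraries share a high total, as the vehicle and combined libraries share a low one. In 726 of the 972 genes called higher (74.7%), all 6 deep libraries lay above all 6 shallow ones, which held for 13.7% of all tested genes. Among the 1256 called lower, 869 (69.2%) had all 6 deep libraries below all 6 shallow ones, against 9.79% of all tested genes. The calls had already used 6 of these 12 libraries. Vehicle replicate 2 was the highest vehicle library in 76.2% of the lower calls and the lowest in 58.5% of the higher calls, against 41.7% and 40.1% of all tested genes. The part of depth in the results was not tested, and the levels in the endothelin-1 and combined libraries are given below beside the genes that the results turn on.

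NPPB, which encodes B-type natriuretic peptide (GRCh38 chromosome 1, 11857464 to 11858931, minus strand), had the largest increase of the genes selected for size. It stood at 119.9, 24.7 and 82.04 CPM with vehicle and 619, 629.6 and 779.8 CPM with sacubitrilat. Vehicle replicate 2 was lowest, and even the lowest sacubitrilat library was far above the highest vehicle library. This is 6.88-fold, with a log2 fold change of 2.78 ± 0.25, adjusted p = 2.30e-10 (± SE), and 2.56, adjusted p = 4.13e-04 at matched depth. NPPB averaged 559.7 ± 11.03 CPM (SD, n = 3) with endothelin-1 alone and 45.9 ± 12.6 CPM with both compounds, so it was high in the deep and low in the shallow libraries.

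NPPA, the gene of atrial natriuretic peptide (chromosome 1, 11845709 to 11848345, minus strand), also rose. It measured 855, 210.3 and 615 CPM with vehicle and 1682, 1566 and 1684 CPM with sacubitrilat, without overlap of the groups and with vehicle replicate 2 lowest. The log2 fold change was 1.36 ± 0.31, adjusted p = 0.00143, and 1.19, adjusted p = 0.0187 at matched depth. Its mean was 3836 ± 173 CPM with endothelin-1 and 837 ± 289 CPM with both. Reads from NPPA and its antisense gene cannot be told apart where the strand setting of the counting is unknown.

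Of the proteases that process the precursors, FURIN was called higher at full depth and CORIN was not. FURIN, a general proprotein convertase of the Golgi, stood at 18.9, 37.1 and 52.7 CPM with vehicle and 104, 90.7 and 118 CPM with sacubitrilat, a log2 fold change of 1.64 ± 0.33, adjusted p = 3.25e-04. At matched depth it missed the threshold (1.2, adjusted p = 0.0573). CORIN, the membrane protease that cuts the atrial precursor, stood at 31.6, 24.7 and 41.02 CPM with vehicle and 60.2, 62.3 and 48.6 CPM with sacubitrilat, and its log2 fold change of 0.66 ± 0.35 did not pass (adjusted p = 0.1797). In the whole natriuretic list, 3 of 5 tested genes were called higher (NPPB, NPPA and FURIN) and 0 lower, with a median log2 fold change of 1.36.

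The receptors and the drug target were near the limit of detection. NPR1, the guanylyl cyclase receptor of both cardiac peptides, gave 5 counts over the vehicle group and 58 over the sacubitrilat group, with a log2 fold change of 0.43 ± 0.67 and an adjusted p of 0.682. NPR2, the receptor of C-type peptide, gave 6 and 38 counts, NPR3, the clearance receptor, 2 and 25, and the convertase gene PCSK6 8 and 22.5. The C-type peptide gene NPPC was at 0 in the vehicle group, which allows up to 5.28 CPM, and at 6 counts with sacubitrilat, and OSTN gave 0 and 1. MME, which encodes neprilysin itself, gave 6 counts with vehicle and 21 with sacubitrilat. Its ratio of pooled counts, each over the pooled total of its group, was 0.434 for sacubitrilat over vehicle. The 95% interval of 0.169 to 1.31 covers counting error only. By library, MME was at 9.47, 12.4 and 11.7 CPM with vehicle and 2.20, 7.10 and 4.61 CPM with sacubitrilat, without overlap. It had too few counts to be tested at full or matched depth, so whether it differed cannot be decided here.

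Other peptidases that act on vasoactive peptides showed 0 calls in either direction by the edgeR test, among 6 tested. ECE1, the endothelin-converting enzyme, had a log2 fold change of 0.22 ± 0.27, adjusted p = 0.594, and IDE, the insulin-degrading enzyme, which also cleaves natriuretic peptides, one of -0.15 ± 0.41, adjusted p = 0.827. CTSA, a lysosomal carboxypeptidase, was at 0.66 ± 0.30, adjusted p = 0.123, THOP1 (thimet oligopeptidase) at 0.72 ± 0.64, adjusted p = 0.453, and NLN (neurolysin) at -0.45 ± 0.42, adjusted p = 0.479. LNPEP, a membrane aminopeptidase, was at -0.01 ± 0.25, adjusted p = 0.975. ACE, ECE2, MMEL1 and XPNPEP2 gave at most 2 counts in either group, and DPP4 gave 1 and 12.

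Among other neprilysin substrates and their receptors, 1 of 7 tested genes was called higher and 0 lower (1 to 2 and 0 with 1 library left out). It was EDNRA, the type A endothelin receptor, at 37.9, 0 and 38.1 CPM with vehicle and 98.4, 102 and 107 CPM with sacubitrilat. Vehicle replicate 2 had no count, and the groups did not overlap. The log2 fold change was 1.61 ± 0.34, adjusted p = 6.37e-04, and 1.47, adjusted p = 0.0312 at matched depth. EDN1, the endothelin-1 gene, gave 2 counts in the vehicle group and 79 in the sacubitrilat group. Its ratio of pooled counts, each over the pooled total of its group, was 4.90, with a counting interval of 1.31 to 41.2. EDN1 narrowly missed the threshold of the edgeR test (adjusted p = 0.0533). Both vehicle counts were in replicate 1, without which it was called (adjusted p = 0.0283). EDNRB, the type B receptor, was at 0 counts in the vehicle group and 10 with sacubitrilat, below the floor of 5.28 CPM that 0 counts over the vehicle group allow.

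Downstream of the receptors, 1 of 9 tested genes of cyclic GMP synthesis, effect and breakdown was called higher and 0 lower (0 to 2 and 0 with 1 library left out, 0 and 0 without vehicle replicate 2), with a median log2 fold change of 0.32. GUCY1A1, a subunit of the soluble guanylyl cyclase that nitric oxide activates, stood at 232, 43.3 and 199 CPM with vehicle and 319, 337 and 339 CPM with sacubitrilat (log2 fold change 0.71 ± 0.22, adjusted p = 0.02099), and was not called at matched depth (0.63, adjusted p = 0.209) or without vehicle replicate 2 (adjusted p = 0.0786). PRKG1, the cyclic GMP-dependent kinase, was at 0.35 ± 0.38, adjusted p = 0.547. The phosphodiesterase genes PDE5A (0.11 ± 0.51, adjusted p = 0.904), PDE9A (-0.14 ± 0.36, adjusted p = 0.807) and PDE3A (-0.45 ± 0.40, adjusted p = 0.447) were not called either.

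**Figure D2:**
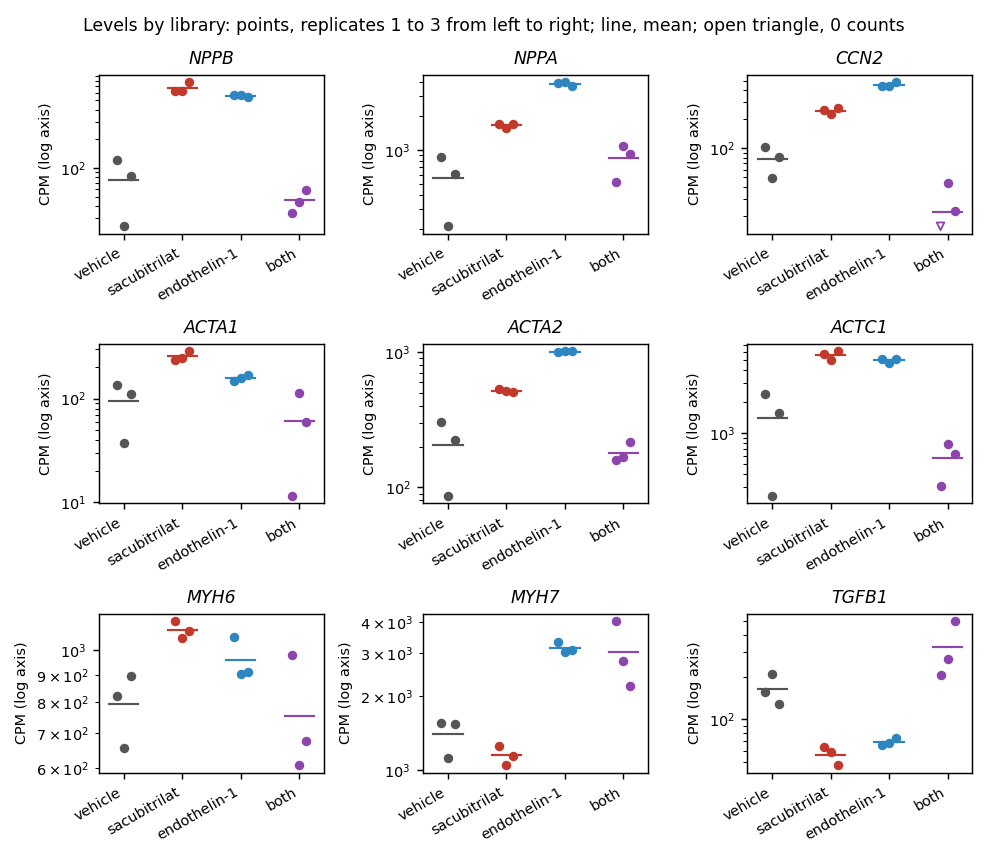
Levels of 9 genes in CPM on a logarithmic axis, 1 panel per gene, with 1 point per library and a line at the mean of each group of 3. NPPB, NPPA, CCN2 and the 3 actin genes are higher in every sacubitrilat library than in any vehicle library and lower again with both compounds, TGFB1 runs the other way, and MYH7 is lower with sacubitrilat than with endothelin-1 or both.

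The sarcomere did not move as a unit. Actin genes rose, while several genes of light chains and of the troponin complex fell. Of 12 tested thin-filament genes, 5 were higher and 2 lower (3 to 6 and 1 to 3 with 1 library left out), with a median log2 fold change of 0.24. At matched depth, 2 were higher and 3 lower of 10. ACTC1, the cardiac alpha-actin, was at 2360.1, 247 and 1559 CPM with vehicle and 5744, 5031 and 6089 CPM with sacubitrilat, with vehicle replicate 2 far below the other two. Its log2 fold change was 1.84 ± 0.38, adjusted p = 5.58e-04, 1.69, adjusted p = 0.0224 at matched depth, and 1.40 without vehicle replicate 2 (adjusted p = 2.75e-05). ACTA1, the skeletal alpha-actin of the fetal heart, was at 136, 37.1 and 111 CPM with vehicle and 234, 249 and 287 CPM with sacubitrilat, again without overlap. Its log2 fold change of 1.10 ± 0.24, adjusted p = 9.39e-04 stayed just past the threshold at matched depth (0.94, adjusted p = 0.0477).

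Among the listed troponin genes the calls were lower. TNNC1, which encodes the calcium-binding cardiac troponin C, fell from 2839.7, 4935 and 3504 CPM with vehicle to 1253, 1392 and 1194 CPM with sacubitrilat (log2 fold change -1.54 ± 0.27, adjusted p = 5.12e-05, matched depth -1.76, adjusted p = 0.00178). TNNT2 was -0.67 ± 0.24, adjusted p = 0.0473, and -0.77, adjusted p = 0.0274 at matched depth. The fetal troponin I gene TNNI1 was at -0.45 ± 0.25, adjusted p = 0.198 in the 12 libraries and was called lower at matched depth (-0.70, adjusted p = 0.0317), and the adult TNNI3 was called in neither (-0.34 ± 0.25, adjusted p = 0.349). TNNT1, the slow skeletal troponin T, is in no list and went the other way, called higher at both depths (1.2, matched depth 1.32). NEBL, TMOD1 and TPM1, which encode nebulette, a pointed-end cap and an alpha-tropomyosin, were called higher at full depth, and neither NEBL nor TPM1 was at matched depth, where TMOD1 could not be tested.

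Of 14 tested thick-filament and M-band genes, 2 were higher and 3 lower (0 to 5 and 3 with 1 library left out, 0 and 3 without vehicle replicate 2), with a median log2 fold change of 0.37. With depths equalized, the calls among 11 testable members were 0 higher and 4 lower. MYL4, the atrial and fetal essential light chain, showed the largest fall of the list. It measured 4645, 14417 and 7038 CPM with vehicle and 2056, 2088 and 2036 CPM with sacubitrilat, so that the lowest vehicle library held more than every sacubitrilat library, and the log2 fold change was -2.02 ± 0.33, adjusted p = 1.57e-05 (-2.33, adjusted p = 0.00178 at matched depth). MYL3, the ventricular essential light chain, moved alike, from 1208, 3068 and 1828 CPM to 762, 801 and 732 CPM (log2 fold change -1.35 ± 0.29, adjusted p = 8.53e-04). MYLK3, the cardiac myosin light chain kinase, was at -1.02 ± 0.19, adjusted p = 9.07e-05. The myosin chaperone gene UNC45B (1.02 ± 0.33, adjusted p = 0.02504) and the myosin-binding protein gene MYBPC3 (0.70 ± 0.25, adjusted p = 0.0454) were the higher calls, and neither was called without vehicle replicate 2. MYL4, MYL3 and MYLK3 were also high in the shallow libraries with both compounds, at means of 12550.3, 3335 and 333 CPM.

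Neither cardiac myosin heavy chain was called at full depth. MYH6, the alpha chain, was at 822, 656 and 897 CPM with vehicle and 1137, 1053 and 1089 CPM with sacubitrilat, and its log2 fold change of 0.39 ± 0.21 did not pass (adjusted p = 0.189), except without vehicle replicate 1 (adjusted p = 0.0393). MYH7, the beta chain that marks the fetal and hypertrophic state in rodents and dominates the adult human ventricle, was at 1559, 1113 and 1538 CPM with vehicle and 1253, 1043 and 1140.2 CPM with sacubitrilat. The groups overlapped at full depth (log2 fold change -0.36 ± 0.25, adjusted p = 0.329), and the gene was called lower at matched depth (-0.70, adjusted p = 0.0343). Unlike the actins, MYH7 did not follow the totals: it averaged 3150.4 ± 153 CPM in the deep endothelin-1 libraries and 3018 ± 951 CPM in the shallow libraries with both. The 2 heavy chains share long stretches of sequence, so that the division of reads between them is uncertain. Titin (TTN, 0.59 ± 0.32, adjusted p = 0.193) and the atrial light chain MYL7 (0.54 ± 0.32, adjusted p = 0.232) were not called.

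**Figure D3:**
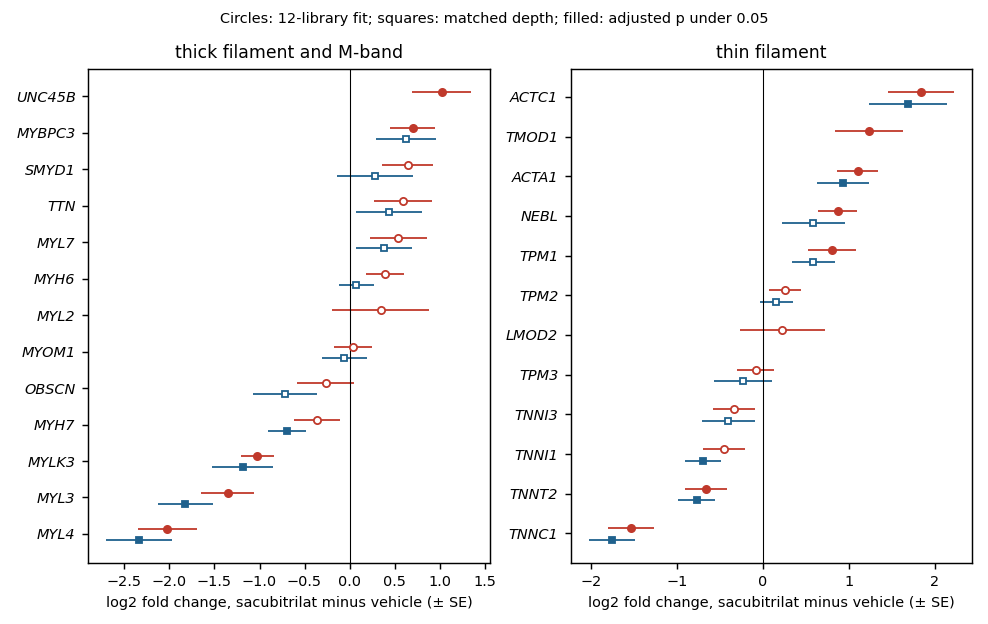
Log2 fold changes (± SE) of sacubitrilat minus vehicle for thick-filament and M-band genes (left) and thin-filament genes (right), at full depth (circles) and matched depth (squares), filled where the adjusted p was under 0.05. Genes at 0 counts in every vehicle library are not drawn, and ACTC1 and ACTA1 lie to the right while TNNC1, MYL3 and MYL4 lie to the left at both depths.

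Of 15 tested genes of the Z-disc and desmin network, 3 were higher and 0 lower (2 to 8 and 0 with 1 library left out), with a median log2 fold change of 0.54. The matched-depth fit called 1 of 11 higher and 1 lower. ACTN2, the tagged alpha-actinin gene, was at 204, 86.6 and 176 CPM with vehicle and 326, 259 and 318 CPM with sacubitrilat (0.71 ± 0.20, adjusted p = 0.0118, not called at matched depth, 0.50, adjusted p = 0.246). CSRP3, the muscle LIM protein, was at 117, 0 and 82.04 CPM with vehicle and 203, 181 and 181 CPM with sacubitrilat and was called at both depths (1.0 ± 0.26, adjusted p = 0.00582, matched depth 1.24, adjusted p = 0.0489). Vehicle replicate 2 held no count of it.

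At full depth, calls among calcium genes were mostly higher, and the lower share was near the 11.2% of all tested genes. Of 20 tested genes of calcium cycling, 5 were higher and 2 lower (4 to 8 and 1 to 2 with 1 library left out, 5 and 1 without vehicle replicate 2), with a median log2 fold change of 0.27. Thinned to equal depth, 14 of them were testable, 0 called higher and 1 lower. PLN, phospholamban, the inhibitor of the sarcoplasmic calcium pump, was at 278, 0 and 135 CPM with vehicle and 375, 398 and 427 CPM with sacubitrilat (1.03 ± 0.28, adjusted p = 0.00654), and the pump gene ATP2A2 itself was lower (-0.64 ± 0.21, adjusted p = 0.02498). Neither was called at matched depth (PLN 1.16, adjusted p = 0.0929, ATP2A2 -0.87, adjusted p = 0.0542), and ATP2A2 was not called without vehicle replicate 2 (adjusted p = 0.116). SLC8A1, the sodium-calcium exchanger, was at 0.95 ± 0.25, adjusted p = 0.00541. HRC, a calcium-binding protein of the sarcoplasmic reticulum, was called lower at both depths, from 177, 247 and 176 CPM to 80.1, 76.5 and 90.1 CPM (-1.25 ± 0.23, adjusted p = 1.22e-04, matched depth -1.37, adjusted p = 0.006503). Its mean in the deep endothelin-1 libraries was 173 CPM, just under the lowest vehicle library. The ryanodine receptor gene RYR2 was not called (0.35 ± 0.23, adjusted p = 0.295).

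Of 10 tested channel and gap-junction genes, 4 were higher and 1 lower (2 to 4 and 0 to 1 with 1 library left out, 3 and 0 without vehicle replicate 2), with a median log2 fold change of 0.82. Among 4 that matched depth left testable, 1 was higher and 1 lower. KCNH2, the hERG potassium channel of repolarization, had the second largest increase of the genes selected by size, on few counts: 18.9, 0 and 0 CPM with vehicle and 69.04, 52.04 and 64.5 CPM with sacubitrilat, which is 6 counts over the 3 vehicle libraries. The log2 fold change was 2.46 ± 0.52, adjusted p = 5.88e-04, and 2.77, adjusted p = 0.00533 at matched depth. GJA1, the gap-junction protein connexin 43, was at 1.36 ± 0.38, adjusted p = 0.008499, and KCNA5, an atrial potassium channel, at 1.75 ± 0.63, adjusted p = 0.0427 on 4 vehicle counts. GJC1, connexin 45 of the conduction system, was lower at -0.89 ± 0.26, adjusted p = 0.0115 and at matched depth (-1.41, adjusted p = 0.0345), but was not called without vehicle replicate 2 (adjusted p = 0.0804).

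Of 17 tested cardiac transcription factor genes, 4 were higher and 0 lower (2 to 5 and 0 with 1 library left out), with a median log2 fold change of 0.49. Equal depth left 8 testable, with 1 higher and 0 lower. GATA6 was at 66.3, 0 and 35.2 CPM with vehicle and 166, 140.3 and 138 CPM with sacubitrilat (1.55 ± 0.31, adjusted p = 2.85e-04, matched depth 1.63, adjusted p = 0.0164). GATA4 (0.83 ± 0.21, adjusted p = 0.00514), NKX2-5 (1.23 ± 0.38, adjusted p = 0.0171) and TBX18 (1.13 ± 0.35, adjusted p = 0.0206) completed the higher calls, with GATA4 and TBX18 not called at matched depth and NKX2-5 below its filter. TBX18 was not called without vehicle replicate 2 (adjusted p = 0.0666). GATA factors and NKX2-5 are core regulators of cardiac genes, and TBX18 marks the epicardium and the sinus node.

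Targets of the serum response factor and of YAP, regulators that answer to actin polymerization and tension, included several genes of large change. Of 24 tested listed targets, 5 were higher and 1 lower (3 to 11 and 1 with 1 library left out), with a median log2 fold change of 0.54. At matched depth, 2 were higher and 1 lower of 15. CCN2, the connective tissue growth factor gene and a YAP and TEAD target (chromosome 6, 131948180 to 131951370, minus strand), was at 104, 49.5 and 82.04 CPM with vehicle and 252, 226 and 259.8 CPM with sacubitrilat. The lowest sacubitrilat library held more than the highest vehicle library, with a log2 fold change of 1.39 ± 0.25, adjusted p = 7.07e-05 (1.15, adjusted p = 0.0149 at matched depth). TEAD3, one of the DNA-binding partners of YAP, was among the 12 largest increases, at 28.4, 12.4 and 29.3 CPM with vehicle and 109, 110.4 and 121 CPM with sacubitrilat (2.02 ± 0.34, adjusted p = 3.20e-05, matched depth 1.88, adjusted p = 0.00492). ACTA2, smooth muscle alpha-actin, was at 306, 86.6 and 223 CPM with vehicle and 535, 517 and 502 CPM with sacubitrilat (1.05 ± 0.24, adjusted p = 0.001298, matched depth 1.03, adjusted p = 0.0265), and CNN1, calponin, at 1.26 ± 0.25, adjusted p = 3.61e-04 (1.07, adjusted p = 0.0436 at matched depth). ANKRD1, a load-responsive target of both factors, was at 0.71 ± 0.25, adjusted p = 0.0399 and was not called at matched depth (0.47, adjusted p = 0.297). MYL9, a smooth muscle and nonmuscle light chain, was called lower, from 3493, 6123 and 4073 CPM to 1719, 1843 and 1754 CPM (-1.35 ± 0.26, adjusted p = 2.16e-04).

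The promoters of CCN2, ACTA1 and ACTC1 are shown because these textbook targets of TEAD factors or serum response factor were called higher at both depths and hold the motifs. ACTA2, CNN1, NPPA, TEAD3, EDNRA and CDKN1A, called higher at both depths as well, held 0 matches to either motif in this window and are not shown. Each sequence is the 250 bases before the annotated start, 5′ to 3′ on the gene's strand, from RefSeq on GRCh38.p14. Capitals mark the TEAD-type motif CATTCC on either strand in CCN2 and ACTA1, and the CArG box of serum response factor in ACTA1 and ACTC1. CCN2 lies on chromosome 6, 131951373 to 131951622, ACTA1 on chromosome 1, 229434095 to 229434344, and ACTC1 on chromosome 15, 34795550 to 34795799, all on the minus strand.
CCN2: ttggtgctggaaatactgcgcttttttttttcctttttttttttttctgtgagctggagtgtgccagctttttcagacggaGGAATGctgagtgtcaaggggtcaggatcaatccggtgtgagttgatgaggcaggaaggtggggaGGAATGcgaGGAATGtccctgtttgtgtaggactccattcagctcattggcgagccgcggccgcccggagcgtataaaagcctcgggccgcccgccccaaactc
ACTA1: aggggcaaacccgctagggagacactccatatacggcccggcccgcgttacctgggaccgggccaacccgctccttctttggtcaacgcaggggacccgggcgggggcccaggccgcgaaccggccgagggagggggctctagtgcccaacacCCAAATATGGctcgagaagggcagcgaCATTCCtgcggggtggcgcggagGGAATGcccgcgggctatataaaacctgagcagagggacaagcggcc
ACTC1: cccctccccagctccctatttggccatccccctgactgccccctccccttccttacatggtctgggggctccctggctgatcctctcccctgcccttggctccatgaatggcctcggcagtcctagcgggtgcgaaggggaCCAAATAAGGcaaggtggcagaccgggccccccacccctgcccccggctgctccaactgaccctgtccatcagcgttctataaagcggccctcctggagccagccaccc
CCN2 held 3 TEAD-type matches, with first bases at -169, -104 and -95 from the start, and ACTA1 held 2, at -70 and -47. At least 1 match was found in 11.9% of 35116 promoters of this length and at least 3 in 0.0826%. The CArG box, which equals its own reverse complement in form and was counted once, lay at -97 in ACTA1 and -109 in ACTC1, and was found in 1.16% of promoters. The motifs do not overlap each other here. They describe the letters of the window and show no binding. The promoters shown were picked for holding the motifs, so the shares of promoters only describe how common each motif is.

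TGF-beta is a growth factor that drives matrix production and is held in the matrix as a latent complex. TGFB1, the gene of its main ligand, was at 158, 210.3 and 129 CPM with vehicle and 63.2, 58.3 and 47.1 CPM with sacubitrilat, with every vehicle library above every sacubitrilat library. The log2 fold change was -1.59 ± 0.25, adjusted p = 1.49e-05, and -1.62, adjusted p = 0.006003 at matched depth. Its mean with both compounds was 327 ± 157 CPM and with endothelin-1 68.9 ± 3.92 CPM. Of 17 tested genes of TGF-beta ligands, relatives and latent binding proteins, 1 was higher and 3 lower (0 to 3 and 2 to 3 with 1 library left out, 0 and 2 without vehicle replicate 2), with a median log2 fold change of -0.19. With depths equalized, the calls among 10 testable members were 0 higher and 2 lower. LTBP4, which anchors latent TGF-beta in the matrix, was called lower at -1.15 ± 0.16, adjusted p = 1.47e-06 (-1.50, adjusted p = 0.00146 at matched depth), as was GDF15, a stress cytokine (-1.05 ± 0.38, adjusted p = 0.0454). BMP2 was the higher call (0.77 ± 0.26, adjusted p = 0.0337) and missed the threshold at matched depth (0.75, adjusted p = 0.117). ID3, a target of BMP signalling, was among the 12 largest increases, at 53.6, 37.1 and 64.5 CPM with vehicle and 191, 169.5 and 199.7 CPM with sacubitrilat (1.70 ± 0.26, adjusted p = 7.65e-06, matched depth 1.45, adjusted p = 0.006003).

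At full depth, collagens had the highest share of higher calls of any list with 8 or more tested members. The lists were chosen with earlier results of these data known. At matched depth collagens did not lead: of 19 fetal and hypertrophy genes, 5 were higher and 4 lower. Of 16 tested collagen genes, 8 were higher and 1 lower, with a median log2 fold change of 0.76. The matched-depth fit called 3 of 13 higher and 1 lower. COL6A1 was at 142, 74.2 and 82.04 CPM with vehicle and 335, 300.4 and 387 CPM with sacubitrilat (1.51 ± 0.22, adjusted p = 3.43e-06, matched depth 1.31, adjusted p = 0.0106). COL2A1, the cartilage collagen, was at 1.2 ± 0.21, adjusted p = 6.69e-05, COL5A2 at 1.07 ± 0.22, adjusted p = 3.99e-04 and COL1A1, the main fibrillar collagen, at 1.16 ± 0.34, adjusted p = 0.0127. COL6A2, whose product assembles with that of COL6A1, was the 1 lower call, from 663, 705 and 679.8 CPM to 375, 386 and 361 CPM (-0.91 ± 0.19, adjusted p = 6.26e-04, matched depth -1.18, adjusted p = 0.00231). COL1A2 (0.48 ± 0.22, adjusted p = 0.113) and COL3A1 (0.68 ± 0.31, adjusted p = 0.114) were not called.

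Of 26 tested other matrix genes, 6 were higher and 0 lower (4 to 10 and 0 to 1 with 1 library left out, 4 and 1 without vehicle replicate 2), with a median log2 fold change of 0.53. Thinned to equal depth, 16 of them were testable, 1 called higher and 1 lower. LAMC1, a laminin chain of the basement membrane, was at 123, 61.8 and 76.2 CPM with vehicle and 255, 253 and 266 CPM with sacubitrilat (1.29 ± 0.23, adjusted p = 5.99e-05, matched depth 1.16, adjusted p = 0.0126). VCAN (0.99 ± 0.23, adjusted p = 0.00179), a proteoglycan of the embryonic heart, FBLN2 (1.58 ± 0.39, adjusted p = 0.00345) and SPARC (0.92 ± 0.23, adjusted p = 0.00391) were called at full depth, and VCAN and SPARC were not at matched depth. FN1, fibronectin, did not differ detectably (0.10 ± 0.24, adjusted p = 0.809), and POSTN, periostin, missed the threshold (1.39 ± 0.55, adjusted p = 0.0685). TIMP1, an inhibitor of matrix proteases, was the 1 gene called lower at matched depth (-0.97, adjusted p = 0.0113).

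Markers of hypertrophy were thus divided. Of 23 tested fetal and hypertrophy genes, 8 were higher and 1 lower (6 to 13 and 1 to 3 with 1 library left out, 6 and 3 without vehicle replicate 2), with a median log2 fold change of 0.59. Among 19 that matched depth left testable, 5 were higher and 4 lower. Some of these genes belong to the lists above as well. RCAN1, a target of calcineurin and NFAT, was at 31.6, 0 and 41.02 CPM with vehicle and 59.1, 59.9 and 62.7 CPM with sacubitrilat and missed the threshold (log2 fold change 0.93 ± 0.35, adjusted p = 0.0565). None of the 10 tested genes of the calcineurin and NFAT list was called in either direction by the edgeR test (1 higher without vehicle replicate 2), and their median log2 fold change was 0.42. ENO3, the muscle enolase, fell at both depths (-0.77 ± 0.19, adjusted p = 0.00385, matched depth -0.86, adjusted p = 0.0337). Immediate early genes, which answer within hours to growth signals, had 0 higher and 2 lower calls of 18 (0 and 1 to 3 with 1 library left out, 0 and 1 without vehicle replicate 2), a lower share near the 11.2% of all tested genes, with a median of -0.56. IER3 fell from 136, 136 and 147 CPM to 40.4, 41.8 and 53.8 CPM (-1.67 ± 0.22, adjusted p = 6.78e-07), and NR4A1 was at -1.45 ± 0.44, adjusted p = 0.0167. NR4A1 was not called without vehicle replicate 2 (adjusted p = 0.112).

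Of the 12 largest increases, the other 7 were MYRF (69.4, 0 and 52.7 CPM with vehicle and 177, 198 and 240.1 CPM with sacubitrilat; 1.85 ± 0.31, adjusted p = 2.52e-05), a membrane-bound transcription factor, the adhesion molecule gene VCAM1 (1.84 ± 0.41, adjusted p = 0.001304), the nuclear lamin gene LMNB2 (1.83 ± 0.30, adjusted p = 2.45e-05), and DMAC1, BABAM1, GLIPR2 and NDN (1.81, 1.78, 1.72 and 1.68). Vehicle replicate 2 was the lowest vehicle library in 10 of the 12 genes and at 0 in 6. MYRF, LMNB2, GLIPR2 and NDN were also called higher with sacubitrilat than with endothelin-1 by the edgeR test, although both groups are deep. Their means with endothelin-1 were 119, 66.2, 50.6 and 60.1 CPM, and the direction between these 2 groups reverses if their labels are exchanged.

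Of the genes selected for size, which had to be called at both depths, the metallothionein gene MT2A had the largest fall. Metallothioneins, small cysteine-rich proteins, bind zinc and copper and are induced by metals, glucocorticoids and stress. MT2A (chromosome 16, 56608199 to 56609497, plus strand) was at 134, 334 and 234 CPM with vehicle and 24.97, 4.34 and 8.704 CPM with sacubitrilat, corresponding to 42.5, 27 and 40 counts in the shallow vehicle libraries and 34, 5.5 and 17 in the deep sacubitrilat libraries. The log2 fold change was -4.03 ± 0.39, adjusted p = 8.77e-10, and -4.00, adjusted p = 0.00119 at matched depth. In 87.4% of the genes called lower, the mean with both compounds lay nearer to the vehicle mean than to the sacubitrilat mean, against 73.8% of all tested genes. MT2A was an exception, low in the shallow libraries with both compounds as well, at 40.6 ± 8.57 CPM, near the 32.7 ± 20.2 CPM with endothelin-1. All 5 tested metallothionein genes were called lower, with a median of -3.38, and 4 of 5 without vehicle replicate 2, but only MT2A had enough counts to test at matched depth. A gene low with sacubitrilat can pass the filter for testing through other libraries. The share of lower calls is therefore partly set by the filter. MT1E was at 44.96, 148 and 29.3 CPM with vehicle and 8.81, 3.55 and 4.61 CPM with sacubitrilat (-3.38 ± 0.46, adjusted p = 9.73e-07), and MT1X at 9.47, 37.1 and 35.2 CPM with vehicle and 10.3, 5.12 and 3.84 CPM with sacubitrilat, where the groups overlapped (-1.85 ± 0.58, adjusted p = 0.02103). Metallothionein genes resemble each other closely, and counts in fractions were assigned to several of them.

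The promoter of MT2A is shown because metal-responsive transcription is the textbook control of this gene. The 250 bases before its start (RefSeq, GRCh38.p14, chromosome 16, 56608334 to 56608583, plus strand) read as follows, with capitals on each match to the metal response element core, TGCACNC or TGCGCNC, on either strand.
MT2A: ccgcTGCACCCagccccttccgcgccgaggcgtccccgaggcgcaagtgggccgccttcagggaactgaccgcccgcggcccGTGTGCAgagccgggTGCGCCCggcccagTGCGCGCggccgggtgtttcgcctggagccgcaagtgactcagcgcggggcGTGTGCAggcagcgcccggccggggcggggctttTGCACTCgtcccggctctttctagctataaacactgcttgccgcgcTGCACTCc
The window held 7 matches, at -246, -168, -153, -139, -88, -54 and -8. At least 1 was found in 24.8% of promoters and at least 3 in 1.58%.

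Other stress genes did not follow in 1 direction. Of 18 tested ferritin, metallothionein and NRF2 target genes, 2 were higher and 6 lower (1 to 2 and 4 to 6 with 1 library left out, 1 and 4 without vehicle replicate 2), with a median log2 fold change of -0.50. The lower calls include metallothionein genes already given above, MT1E and MT1X among them. Equal depth left 8 testable, with 1 higher and 3 lower. NQO1, a quinone reductase under NRF2 control, was at 37.9, 86.6 and 93.8 CPM with vehicle and 27.2, 19.7 and 15.9 CPM with sacubitrilat (-1.68 ± 0.35, adjusted p = 4.91e-04), and GPX4, the peroxidase that guards membrane lipids, at -0.68 ± 0.16, adjusted p = 0.00233 (-1.0, adjusted p = 0.00615 at matched depth). FTH1, the ferritin heavy chain, was called lower (-1.12 ± 0.27, adjusted p = 0.003200), a call that rested on 1 library. It was at 1133, 3868 and 705 CPM with vehicle and 812, 713 and 862 CPM with sacubitrilat, the groups overlapped, and without vehicle replicate 2 the log2 fold change was -0.36 (adjusted p = 0.149). PRDX1, a peroxiredoxin, rose (0.78 ± 0.17, adjusted p = 0.00117, matched depth 0.66, adjusted p = 0.0397).

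Of 16 tested heat shock and crystallin genes, 4 were higher and 2 lower (2 to 5 and 2 to 3 with 1 library left out), with a median log2 fold change of 0.42. At matched depth, 1 was higher and 2 lower of 10. The inducible HSP70 genes HSPA1A (30.8, 86.6 and 39.6 CPM with vehicle and 4.77, 11.2 and 6.02 CPM with sacubitrilat; -2.66 ± 0.47, adjusted p = 6.06e-05) and HSPA1B (-1.54 ± 0.27, adjusted p = 6.60e-05) fell, though their near-identical sequences leave the division of reads between them uncertain. The small heat shock gene HSPB1 rose (0.92 ± 0.26, adjusted p = 0.0107, matched depth 0.80, adjusted p = 0.0417). Of 18 tested chaperone genes of the endoplasmic reticulum, 7 were higher and 0 lower (4 to 6 and 0 with 1 library left out), with a median log2 fold change of 0.43. With depths equalized, the calls among 11 testable members were 0 higher and 0 lower. HSPA5, the main chaperone of that compartment, was at 227, 247 and 214 CPM with vehicle and 373, 367 and 415 CPM with sacubitrilat (0.70 ± 0.17, adjusted p = 0.003500, matched depth 0.36, adjusted p = 0.294), and CALR, calreticulin, at 0.74 ± 0.20, adjusted p = 0.00786. Of 24 tested genes of the amino acid response, 1 was higher and 1 lower (0 to 2 and 1 with 1 library left out), with a median log2 fold change of 0.08. The matched-depth fit called 0 of 12 higher and 0 lower.

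Of 21 tested p53 targets and inhibitors of cyclin-dependent kinases, 5 were higher and 1 lower (2 to 8 and 1 with 1 library left out, 3 and 1 without vehicle replicate 2), with a median log2 fold change of 0.74. Thinned to equal depth, 5 of them were testable, 1 called higher and 0 lower. CDKN1A, the p21 inhibitor, was at 167, 37.1 and 147 CPM with vehicle and 331, 305 and 361 CPM with sacubitrilat (1.18 ± 0.24, adjusted p = 3.69e-04, matched depth 1.04, adjusted p = 0.0367). CDKN2A, the p16 and ARF locus, fell from 41.02, 74.2 and 64.5 CPM to 7.34, 2.37 and 11.3 CPM (-2.86 ± 0.42, adjusted p = 3.33e-06), and its mean with both compounds was 5.92 CPM, under the floor of 18.9 to 34.4 CPM that 3 counts set in those libraries. Its neighbour CDKN2B rose (1.44 ± 0.44, adjusted p = 0.0175), which was not called without vehicle replicate 2 (adjusted p = 0.05503). Of 31 tested cell cycle genes, 2 were higher and 1 lower (0 to 4 and 1 with 1 library left out, 0 and 1 without vehicle replicate 2), with a median log2 fold change of 0.16. Among 14 that matched depth left testable, 0 were higher and 1 lower. MCM4, a subunit of the replicative helicase, was the lower call, at 85.2, 594 and 182 CPM with vehicle and 39.8, 45.7 and 51.2 CPM with sacubitrilat (-2.13 ± 0.32, adjusted p = 3.93e-06).

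Class I antigen presentation shows peptides to T cells and is raised by interferon. Of 15 tested genes of this list, 1 was higher and 6 lower (1 to 3 and 5 to 9 with 1 library left out), with a median log2 fold change of -0.67. Equal depth left 8 testable, with 0 higher and 3 lower. B2M, the shared light chain of class I molecules, was at 155, 544 and 193 CPM with vehicle and 133, 84.4 and 87.6 CPM with sacubitrilat (-1.25 ± 0.24, adjusted p = 1.55e-04, matched depth -1.68, adjusted p = 0.0213). HLA-B, a class I heavy chain, had a log2 fold change of -1.75 ± 0.34, adjusted p = 2.71e-04. IFI27 was called lower (-3.43 ± 0.70, adjusted p = 4.53e-04) with overlapping groups, at 29.97, 142 and 0 CPM with vehicle. IFITM3 was the 1 higher call (0.88 ± 0.24, adjusted p = 0.00791), not called at matched depth (0.65, adjusted p = 0.0622). B2M averaged 113 CPM with both compounds, within the range of the sacubitrilat libraries.

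Genes of energy metabolism were called in both directions, except those of fatty acids, where every call was lower. Of 21 tested genes of fatty acid uptake and oxidation, 0 were higher and 4 lower (0 and 1 to 3 with 1 library left out, 0 and 1 without vehicle replicate 2), with a median log2 fold change of -0.16. At matched depth, 0 were higher and 1 lower of 5. LPL, lipoprotein lipase, was at 22.1, 74.2 and 17.6 CPM with vehicle and 4.41, 3.94 and 6.66 CPM with sacubitrilat (-2.49 ± 0.56, adjusted p = 0.00136), on 16 vehicle counts, and ETFDH (-1.10 ± 0.30, adjusted p = 0.00786), ETFB (-0.78 ± 0.22, adjusted p = 0.0101) and ACSL1 (-1.18 ± 0.41, adjusted p = 0.0394) were the other lower calls. Without vehicle replicate 2, LPL was called alone of these 4. Of 25 tested genes of glycolysis and lactate handling, 4 were higher and 4 lower (2 to 3 and 1 to 4 with 1 library left out, 2 and 3 without vehicle replicate 2), with a median log2 fold change of 0.12. With depths equalized, the calls among 18 testable members were 0 higher and 2 lower. GAPDH, often used as a reference gene, was called lower, from 10740.5, 20124 and 13733 CPM to 5081, 5493 and 4943 CPM (-1.50 ± 0.30, adjusted p = 2.96e-04, matched depth -1.80, adjusted p = 0.00206), and stood at a mean of 18507 CPM in the shallow libraries with both compounds and 6019.9 CPM with endothelin-1. PFKP (0.88 ± 0.23, adjusted p = 0.00521) and PFKM (0.88 ± 0.28, adjusted p = 0.02202), phosphofructokinases, were called higher.

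Of 40 tested nuclear genes of the respiratory chain, 5 were higher and 8 lower (1 to 4 and 5 to 9 with 1 library left out, 3 and 8 without vehicle replicate 2), with a median log2 fold change of 0.13. The matched-depth fit called 0 of 35 higher and 9 lower. The complex I gene NDUFV1 was at 359.7, 1385 and 580.2 CPM with vehicle and 195, 171 and 168 CPM with sacubitrilat (-1.90 ± 0.25, adjusted p = 5.95e-07, matched depth -2.40, adjusted p = 0.002704), and NDUFA13 (-1.08 ± 0.19, adjusted p = 7.02e-05), NDUFS5 (-1.03 ± 0.18, adjusted p = 7.61e-05) and UQCRC1 (-0.85 ± 0.16, adjusted p = 1.21e-04) were lower as well. Of 13 tested mitochondrially encoded messenger RNAs, 1 was higher and 3 lower (0 to 1 and 1 to 5 with 1 library left out, 1 and 5 without vehicle replicate 2), with a median log2 fold change of 0.01. Thinned to equal depth, 13 of them were testable, 0 called higher and 3 lower. MT-ATP8 fell from 11925, 21118 and 15903 CPM to 3058, 3821 and 2810.0 CPM (-2.32 ± 0.34, adjusted p = 3.91e-06), while MT-CO3 rose (0.87 ± 0.30, adjusted p = 0.0338). MT-ATP8 overlaps its neighbour gene on the mitochondrial genome, so its counts are uncertain. Mitochondrially encoded RNA made up 17.4% ± 5.47 of counts with vehicle and 15.7% ± 1.27 with sacubitrilat (SD, n = 3 each; exact two-sided permutation test p = 0.7, where 0.1 is the smallest value that 3 against 3 allow).

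Of 48 tested ribosomal protein genes, 10 were higher and 6 lower (6 to 16 and 2 to 7 with 1 library left out), with a median log2 fold change of 0.21. Among 48 that matched depth left testable, 4 were higher and 7 lower. RPL41 was the largest fall (2142, 4752 and 3146 CPM with vehicle and 1332, 1321 and 1365 CPM with sacubitrilat; -1.29 ± 0.25, adjusted p = 3.05e-04) and RPS28 the largest rise (720.2, 475 and 737 CPM with vehicle and 1469.6, 1342 and 1485 CPM with sacubitrilat; 1.05 ± 0.22, adjusted p = 6.97e-04). Ribosomal protein genes have many processed pseudogenes that can take part of the reads. Of 29 tested proteasome genes, 2 were higher and 0 lower (1 to 4 and 0 with 1 library left out), with a median log2 fold change of 0.32. Equal depth left 23 testable, with 1 higher and 0 lower. PSMB1 was at 66.3, 74.2 and 111 CPM with vehicle and 202, 205 and 225 CPM with sacubitrilat (1.30 ± 0.22, adjusted p = 4.14e-05, matched depth 1.05, adjusted p = 0.0245).

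**Figure D4:**
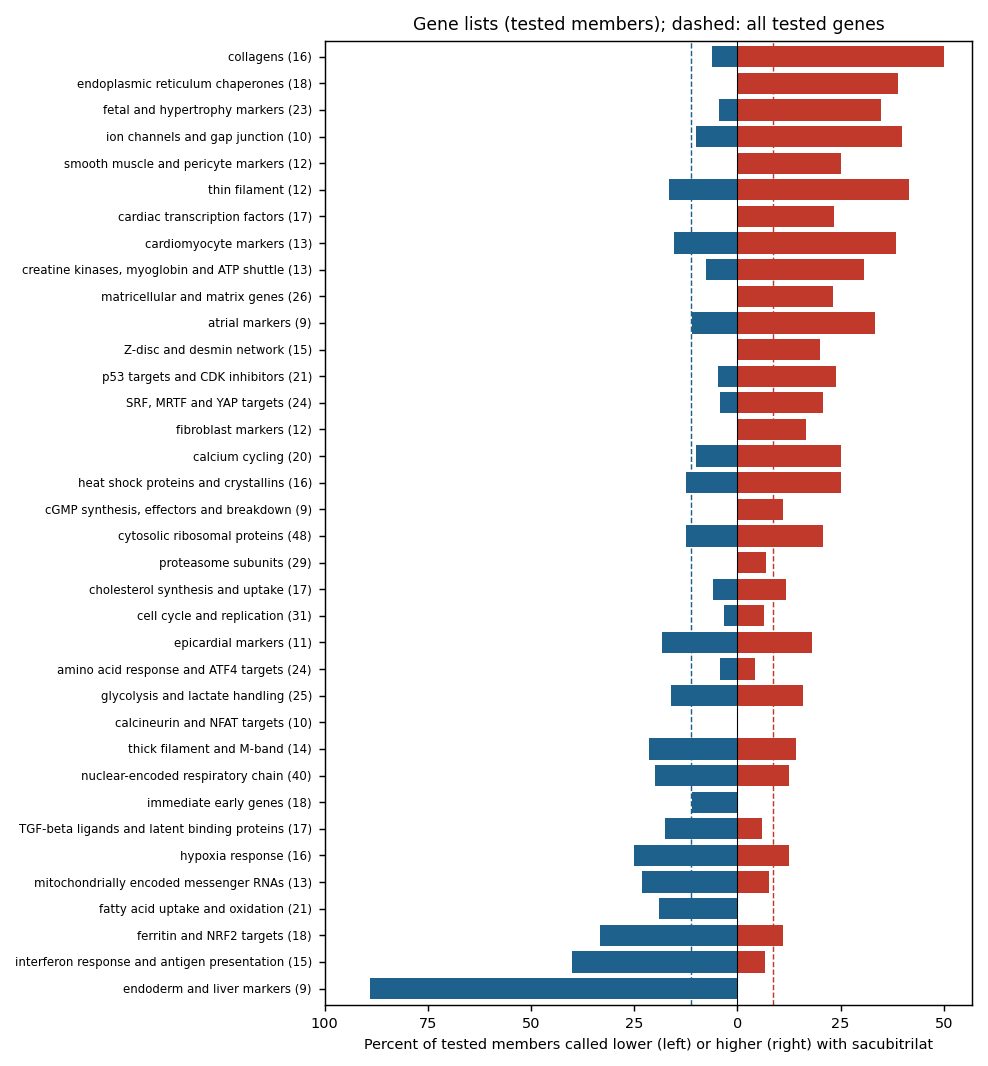
Percent of tested members called lower (blue, left) or higher (red, right) with sacubitrilat at full depth, for each gene list with at least 8 tested members, whose number is in parentheses. Dashed lines mark the shares among all 11203 tested genes, 8.68% higher and 11.2% lower, and collagens extend farthest to the right and endoderm and liver markers farthest to the left. Genes low with sacubitrilat could pass the filter for testing through other libraries, which partly sets the shares of lower calls.

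The rest of the largest decreases had a common pattern across libraries. Besides MT2A, the 12 largest were ZNF121, PIGR, IGKC, PDE11A, PHGR1, S100A6, BORCS7-ASMT, AS3MT, RAB30-DT, MRI1 and RPL7L1. ZNF121, a zinc-finger gene, was at 435, 1404 and 756 CPM with vehicle and 82.99, 113 and 90.1 CPM with sacubitrilat (-3.00 ± 0.21, adjusted p = 1.27e-13, matched depth -3.28, adjusted p = 0.00146). PIGR, the epithelial transporter of polymeric immunoglobulin, was at 101, 346 and 169.9 CPM with vehicle and 17.1, 22.1 and 24.3 CPM with sacubitrilat (-2.95 ± 0.28, adjusted p = 8.39e-10). S100A6, the calcium-binding protein calcyclin, was at 350.2, 816 and 334 CPM with vehicle and 76.4, 65.4 and 55.3 CPM with sacubitrilat (-2.77 ± 0.19, adjusted p = 1.27e-13, matched depth -3.21, adjusted p = 9.65e-04).

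In all 12 of these genes vehicle replicate 2 was the highest vehicle library, and in 11 the vehicle libraries lay in the inverse order of their totals. The libraries with both compounds were likewise high in most of them, at means of 1099.8 CPM for ZNF121, 287 for PIGR and 1702 for RPL7L1. S100A6 averaged 287 CPM with both compounds, above the sacubitrilat libraries but under the lowest vehicle library (334 CPM). The libraries with endothelin-1 were low, at 79.4 CPM for ZNF121, 20.5 for PIGR, 199 for RPL7L1 and 75.1 for S100A6. BORCS7-ASMT and AS3MT overlap on chromosome 10 and had the same values in the vehicle libraries, so they count as 1 signal. The part of library depth in these decreases was not tested.

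**Figure D5:**
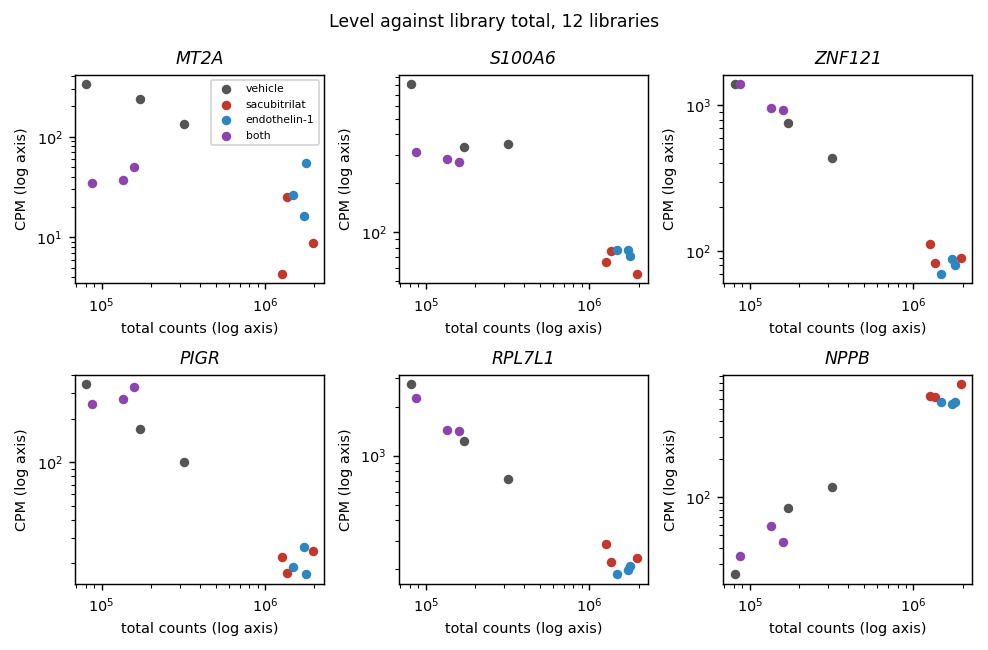
Level in CPM against the total counts of each of the 12 libraries, both on logarithmic axes, for 5 of the genes called lower and for NPPB. ZNF121, PIGR and RPL7L1 are high in all 6 shallow libraries (vehicle and both) and low in the 6 deep ones, NPPB runs the opposite way, and MT2A is high in the vehicle libraries but not in those with both compounds.

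The pattern extended to classes of genes. Of 926 tested long noncoding RNA genes, 17 were higher and 281 lower (30.3%), and of 317 pseudogenes 11 were higher and 125 lower (39.4%), against 8.28% lower among 9855 protein-coding genes. The median log2 fold changes were -0.95, -1.08 and 0.21. At matched depth 48 of 108 long noncoding RNA genes and 13 of 60 pseudogenes were lower, with medians of -0.89 and -0.19, against 313 of 2845 protein-coding genes. Without vehicle replicate 2 the lower calls were 210 of 1527, 97 of 442 and 649 of 11549. Long noncoding RNA took 8.58% ± 1.33 of counts with vehicle and 5.48% ± 0.137 with sacubitrilat, pseudogenes 2.70% ± 0.408 and 2.01% ± 0.0687, and zinc-finger genes of the ZNF series 1.18% ± 0.288 and 0.795% ± 0.00951. All 3 shares were higher in every vehicle library, with the smallest exact permutation p that the design allows (0.1). They were as high in the libraries with both compounds, for example 9.22% to 10.9% for long noncoding RNA. At an equal 80000 counts, 11600, 13843 and 12148 genes were detected in the vehicle libraries and 11363 to 11498 in the sacubitrilat libraries (exact p = 0.1), and 12662 to 13412 with both compounds. Across 9801 protein-coding genes, Spearman's rho of transcript length and change was 0.0074, given as a description over genes that share libraries. The share called lower was 10.7% in the shortest of 4 equal length groups and 7.56% in the longest. At matched depth the share called higher was 5.85% and 2.79%.

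Markers of cells other than cardiomyocytes were measured because differentiated cultures can hold them. In bulk RNA, fewer cells of a type and less RNA per cell cannot be told apart. Endoderm and liver markers summed to 263 to 952 CPM in the vehicle libraries and 72.7 to 86.7 CPM in the sacubitrilat libraries, and 611 to 859 CPM with both compounds. Of 9 tested, 0 were higher and 8 lower, with a median of -2.59 (5 lower of 12 tested without vehicle replicate 2, and 5 to 7 lower without any other library), and none could be tested at matched depth. Only 9 of the 18 listed genes were tested. The filter for testing asks for enough counts in 3 libraries, whichever they are. Genes low with sacubitrilat, APOA2 and EPCAM among them, passed it through other libraries, so the filter partly sets the share of lower calls. APOA2, an apolipoprotein of liver, was at 47.3, 124 and 64.5 CPM with vehicle and 7.34, 10.2 and 10.2 CPM with sacubitrilat (-2.83 ± 0.40, adjusted p = 1.74e-06), and the epithelial adhesion gene EPCAM at 48.9, 198 and 111 CPM with vehicle and 8.08, 7.88 and 10.8 CPM with sacubitrilat (-3.37 ± 0.36, adjusted p = 6.39e-09). Of 4 tested neutrophil chemokines and secreted epithelial genes, 3 were lower: TFPI2, a protease inhibitor (161, 779 and 35.2 CPM with vehicle and 8.81, 0.788 and 2.56 CPM with sacubitrilat; -5.80 ± 0.55, adjusted p = 8.39e-10), LCN2, lipocalin 2 (-5.50 ± 0.55, adjusted p = 1.75e-09), and the chemokine gene CXCL1 (37.9, 37.1 and 17.6 CPM with vehicle and 0, 0.788 and 0 CPM with sacubitrilat; -6.52 ± 0.86, adjusted p = 5.27e-07). With 1 library left out, 4 to 6 genes of this list were lower, but the number tested changed too. Without vehicle replicate 2, 4 of 7 tested were lower. Here 4 of 17 listed genes were tested, and TFPI2 and CXCL1 likewise passed the filter through libraries other than those with sacubitrilat. TFPI2 and CXCL1 were low with both compounds too, at means of 0 and 2.47 CPM, where 3 counts correspond to 18.9 to 34.4 CPM.

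Every call among fibroblast, smooth muscle and pericyte markers was higher in the fit of 12 libraries. Among all tested genes, 8.68% were called higher and 11.2% lower, and at matched depth 4.33% higher and 12.5% lower. Of 12 tested fibroblast markers, 2 were higher and 0 lower (1 to 6 and 0 to 1 with 1 library left out, 1 and 0 without vehicle replicate 2), with a median log2 fold change of 0.66. At matched depth, 1 was higher and 0 lower of 7. Their summed level was 1973 to 5253 CPM with vehicle and 7283 to 7588 CPM with sacubitrilat. Of 12 tested smooth muscle and pericyte markers, 3 were higher and 0 lower (3 to 5 and 0 with 1 library left out), with a median log2 fold change of 0.40. With depths equalized, the calls among 7 testable members were 3 higher and 0 lower. These summed to 671 to 2365 CPM and 3208 to 3303 CPM, and RGS5, a pericyte gene, was at 104, 24.7 and 93.8 CPM with vehicle and 209, 220.0 and 219 CPM with sacubitrilat (1.19 ± 0.23, adjusted p = 2.59e-04). The fibroblast sum was 2183 to 4717 CPM and the smooth muscle sum 1066 to 2442 CPM in the libraries with both compounds. The part of stromal cells in the collagen, matrix and actin results was not tested. Of 13 tested cardiomyocyte markers, 5 were higher and 2 lower (4 to 8 and 1 to 2 with 1 library left out), with a median log2 fold change of 0.54. The matched-depth fit called 1 of 12 higher and 3 lower. Their sum was 11559 to 17762 CPM with vehicle and 19173 to 20600 CPM with sacubitrilat. Endothelial markers were near the floor, with 44 counts over the vehicle group for 12 genes, and 7 of 14 skeletal muscle markers were at 0 in all 6 libraries.

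Sacubitrilat was last set against endothelin-1, the 2 groups of like depth (summed totals 1.09-fold apart), which asks how the 2 single treatments differ. Of 11203 genes, 1257 (11.2%) were called, 535 higher (4.78%) and 722 lower (6.44%) with sacubitrilat. If the second description lines hold, these 2 groups trade places and every direction in this comparison reverses. NPPB did not differ detectably (0.16 ± 0.15, adjusted p = 0.587). NPPA was lower with sacubitrilat (-1.34 ± 0.29, adjusted p = 0.00101), as were MYH7 (-1.58 ± 0.25, adjusted p = 1.37e-05), ACTA2 (-1.07 ± 0.18, adjusted p = 3.81e-05), CCN2 (-1.01 ± 0.12, adjusted p = 1.09e-07) and RCAN1 (-0.56 ± 0.13, adjusted p = 0.00304). ACTA1 was higher with sacubitrilat (0.58 ± 0.13, adjusted p = 0.00151), and so was NPR1 (1.91 ± 0.39, adjusted p = 6.26e-04), which averaged 12.97 ± 1.92 CPM against 2.99 ± 0.836 CPM. EDNRA, CORIN and MYH6 were not called (-0.05 ± 0.13, adjusted p = 0.876; -0.23 ± 0.14, adjusted p = 0.358; 0.07 ± 0.19, adjusted p = 0.877), nor were EDN1 (-0.60 ± 0.22, adjusted p = 0.0754) and TGFB1 (-0.44 ± 0.17, adjusted p = 0.0844). Of the 23 fetal and hypertrophy genes, 1 was higher and 11 lower than with endothelin-1, and of 14 thick-filament genes 0 were higher and 8 lower.

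The effect of sacubitrilat with endothelin-1 present was compared with its effect alone by the interaction term of the same fit. It called 5163 genes (46.1%), 2255 higher (20.1%) and 2908 lower (26%). This contrast sets the 6 shallow libraries against the 6 deep ones, so that depth and interaction cannot be told apart. NPPB had the largest panel value (-6.38 ± 0.41, adjusted p = 3.34e-15) and MYH7 one that did not pass (0.23 ± 0.35, adjusted p = 0.621).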

How the data were processed

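The series counted 3′ ends of messenger RNA in 12 cultures of cardiomyocytes from 1 human stem cell line, of which 6 enter the comparison. Reverse transcription used a poly(dT) primer with a unique molecular identifier, per the labels' protocols. The submitters' processing notes name fastp 0.24.0, featureCounts and the build GRCh38. Not given in the sources used here were the aligner, the annotation release, the strand setting and whether the identifiers were used. The authors deposited estimated counts (some of them fractions) and CPM values, which equal each count's share of its library total (largest difference 1.46e-11). Of 78986 features, 92 spike-ins held 0 counts and were left out.

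Counts were rounded and tested with edgeR 4.0.16 (quasi-likelihood, TMM scaling, filterByExpr, R 4.3.3) in 1 model of 12 libraries with group as sole term, and p was adjusted by Benjamini-Hochberg over all tested genes at 0.05. At matched depth each sacubitrilat library was thinned without replacement (seed 1) to the total of the vehicle library of its number, and the 6 libraries were fitted alone. The members and the 45 gene lists (799 genes, 798 matched by symbol, 634 tested) were chosen with earlier results of these data known. Named genes were a panel of peptide, receptor and hypertrophy genes, every gene of the natriuretic and peptidase lists, up to 4 called members per list by p, and the 12 largest changes in each direction among genes called at both depths, with groups that did not overlap and 20 CPM or more on average. Of those that met these conditions, 128 were higher and 312 lower. Uncalled members were added where a role needed them, and some genes (ENO3, IER3, TNNI1, PFKM, MYL7, TIMP1 and TNNT1 among them) were chosen after their values were seen. Individual values of 2 listed genes are not reported here. The labels give the replicate number as batch, and same-numbered libraries were checked for pairing: their deviations from group means correlated at 0.0261, 0.0467 and -0.0072, none over 0.1, so no block was used. Counting noise in the shallow vehicle libraries weakens such correlations, so this check cannot exclude pairing. Intervals and floors cover counting error only. Each SE was derived as the absolute log2 fold change over the square root of its quasi-likelihood F statistic, not estimated directly by the model. Alternatives were DESeq2 1.42.0, limma-voom (limma 3.58.1), RLE scaling, other filters, thinning to 80000 counts, a replicate block, exchanged labels and each library left out. The scripts were tested on simulated data. Gene coordinates came from GENCODE on GRCh38. Figures used matplotlib 3.10.9.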

Additional observations from a re-analysis of the deposited data

Results flagged for a closer look

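For 11 genes of the panel, the effect of sacubitrilat in the presence of endothelin-1 differed from its effect alone by the interaction term of the edgeR fit (adjusted p under 0.05, as did 46.1% of all tested genes). The log2 differences, effect with minus effect without endothelin-1, were -3.56 for NPPA, -6.38 for NPPB, -3.62 for CORIN, -4.37 for EDN1, -3.69 for EDNRA, -2.31 for ACTA1, -3.56 for ACTA2, -0.82 for MYH6, -2.47 for RCAN1, -5.55 for CCN2 and 3.84 for TGFB1. Each sign is opposite to that of sacubitrilat alone against vehicle. The contrast equals the 6 shallow libraries against the 6 deep ones, so depth and interaction cannot be told apart. NPR1 and MYH7 were tested and did not pass.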

How the results depend on the processing

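Of 2228 calls between sacubitrilat and vehicle, the count fell to 792 when genes needed a mean of 50 counts, to 419 with 12 libraries thinned to 80000 counts, and to 278 with the 6 thinned libraries alone. These settings also test fewer genes. Leaving out 1 library gave 1450 (without vehicle replicate 3) to 2360 calls. At matched depth, 508 calls became 278 with the 6 libraries at 80000 counts and 316 by DESeq2. Leaving out 1 library there gave 145 (without sacubitrilat replicate 1) to 776 (without vehicle replicate 2), with 273 without vehicle replicate 3 and 188 without sacubitrilat replicate 3. The cause was not tested. The interaction called 955 genes after thinning, and sacubitrilat against endothelin-1 called 758 genes by DESeq2 and 13 after thinning to 80000 counts. Without a filter, 1397 genes were higher and 941 lower than with vehicle, against 972 and 1256.

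With the sacubitrilat and endothelin-1 labels exchanged, as the second description line reads, 2596 genes were called against vehicle. Between those 2 groups every sign then reverses, with 722 genes called higher and 535 lower. Against vehicle, signs turned for NPR1 (-1.47), MYH7 (1.22), TBX18 (-0.86), TNC (-0.92) and ENO3 (0.80), ACTA1, LMNB2 and GLIPR2 lost their call, and no other named or panel gene of the size rule changed direction. ACTA1 and TGFB1 lost their call with 12 libraries thinned and ACTA1 and ACTA2 with 6. The mitochondrially encoded share, 1.61 percentage points lower with sacubitrilat, turned to 0.760 points higher without vehicle replicate 1 and was -4.60 without vehicle replicate 2. No pairing by replicate number was detected, although the shallow libraries do not allow it to be excluded. A replicate block gave 1927 calls (588 at matched depth, 4923 for the interaction, 963 against endothelin-1). Under the block no gene of the panel or the size rule lost its call and EDN1 gained one (adjusted p = 0.0466). EDN1 and RCAN1 were also called with limma-voom, RLE scaling and no filter (adjusted p 0.0292 to 0.0488), RCAN1 by DESeq2 (0.0489), both with exchanged labels, and MYH7 with a mean of 50 counts (0.03400). Of 90 counts of listed genes called in 1 direction, leaving out 1 library moved 20 (sacubitrilat replicate 2) to 31 (vehicle replicate 3) by over 1.5 times. The shallow vehicle libraries limit what could be tested: genes near 3 counts there, among them MME, NPR3 and EDNRB, were not testable.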
